A study of Mus musculus with 12 samples.

Results

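Genes of cholesterol and fatty acid synthesis were followed by RNA sequencing of cardiomyocytes from the hearts of newborn mice, in 12 libraries. The 33 members, out of 52336 genes measured, were taken by symbol: 7 of the mevalonate steps, 11 of the steps from squalene to sterol, 5 that control the SREBP factors or sterol traffic, 8 of fatty acid synthesis and desaturation, and 2 of sterol export. All 33 matched a gene identifier, and 32 had a mean normalized read count of at least 10 and were tested. Wild type pups received a high dose, in the labels' words, of the antioxidant and cysteine precursor N-acetylcysteine (NAC), or saline as the control, on postnatal days 0 to 1. The NAC solution contained 140 mM NaCl and, as a buffer, 25 mM HEPES. On day 2 the left anterior descending coronary artery was occluded, which gives a myocardial infarction (MI), or a sham operation was done, and on day 3 the ventricles were pooled and digested and cells were selected with a kit for neonatal cardiomyocytes. The 4 groups, each of 3 libraries, are called saline sham, saline MI, NAC sham and NAC MI. The sample labels name the left ventricle, the series' design text whole ventricular tissue. The labels do not state that the libraries came from separate litters or preparations, so the spread behind each p-value may be technical.

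Animal cells build cholesterol from acetyl-CoA through mevalonate, isoprenoids, squalene and lanosterol, and build fatty acids from the same precursor through malonyl-CoA. Genes of both routes are switched on by the SREBP transcription factors, encoded by Srebf1 and Srebf2. These are held in the endoplasmic reticulum by INSIG proteins and escorted to the Golgi by SCAP when sterols are low. Sterol surplus is instead met by the LXR receptors, which induce the exporters ABCA1 and ABCG1. Heart muscle burns fatty acids as its main fuel after birth, while dividing cells need sterols and fatty acids for new membrane.

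The upstream sequence of 5 members is shown because they are among the members described below and because they differ in the letters they hold. SREBP factors act together with the CCAAT-binding factor NF-Y at many of their targets. The 250 bases before the transcription start were read from RefSeq on GRCm38.p6, which held such a window for 25 of the 33 members, and both strands were searched. In the printed runs, 5′ to 3′ on the strand of the gene, capitals mark CCAAT or its reverse complement ATTGG, and the sterol response element TCACNCCAC. Hmgcs1 (chr13:119690101-119690350 on the plus strand) was the 1 member of 25 with the latter, 137 bases before its start, against 1.22% of all genes with a window. Msmo1 (chr8:64733579-64733828 on the minus strand) and Hsd17b7 (chr1:169969206-169969455 on the minus strand) held 3 copies of CCAAT each. Cyp51 (chr5:4104698-4104947 on the minus strand) and Mvd (chr8:122443423-122443672 on the minus strand) held 1 and 2 copies.
Hmgcs1: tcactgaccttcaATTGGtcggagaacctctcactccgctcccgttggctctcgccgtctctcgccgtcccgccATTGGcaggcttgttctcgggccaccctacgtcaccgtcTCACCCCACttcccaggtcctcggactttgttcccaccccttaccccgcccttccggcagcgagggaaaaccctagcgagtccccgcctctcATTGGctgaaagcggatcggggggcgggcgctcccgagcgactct
Msmo1: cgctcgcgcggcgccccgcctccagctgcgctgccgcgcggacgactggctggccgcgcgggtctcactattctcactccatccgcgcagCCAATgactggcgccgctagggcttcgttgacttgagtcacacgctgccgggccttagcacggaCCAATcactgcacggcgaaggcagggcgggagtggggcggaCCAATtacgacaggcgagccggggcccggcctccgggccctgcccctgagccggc
Hsd17b7: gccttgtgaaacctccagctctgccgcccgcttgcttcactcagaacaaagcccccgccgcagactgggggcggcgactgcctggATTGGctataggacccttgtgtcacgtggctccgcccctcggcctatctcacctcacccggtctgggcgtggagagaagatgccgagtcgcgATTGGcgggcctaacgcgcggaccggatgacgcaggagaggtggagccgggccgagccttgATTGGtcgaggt
Cyp51: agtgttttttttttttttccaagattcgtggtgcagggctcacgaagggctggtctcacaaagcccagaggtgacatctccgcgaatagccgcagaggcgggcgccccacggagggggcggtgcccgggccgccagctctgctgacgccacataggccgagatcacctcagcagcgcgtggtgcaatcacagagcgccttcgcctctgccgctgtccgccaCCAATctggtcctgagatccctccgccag
Mvd: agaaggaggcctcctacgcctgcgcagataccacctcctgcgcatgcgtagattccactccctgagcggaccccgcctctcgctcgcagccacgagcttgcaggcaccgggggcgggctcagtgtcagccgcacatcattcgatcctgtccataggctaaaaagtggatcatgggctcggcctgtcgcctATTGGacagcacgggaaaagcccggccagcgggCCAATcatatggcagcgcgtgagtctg
CCAAT lay in the window of 18 of the 25 members, against 37.5% of all 27025 genes with a window. The E-box CACGTG lay in 6 of 25 members, against 6.86%. The motifs do not overlap in the printed runs. A match describes the letters only, and the absence of one says nothing of a factor.

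Levels are normalized read counts, and between genes they are compared per kilobase of exon. The length joins all annotated exons of a gene and can exceed that of any single transcript, so the order of genes depends on it. It was 10787 bases for Lss, 4403 for Tm7sf2 and 17074 for Acaca, each well above their longest coding transcript. Scd2, which encodes a stearoyl-CoA desaturase, had the highest level at 524 per kilobase, and its relative Scd1 had 27.6. Acly, which makes cytosolic acetyl-CoA, followed Scd2 with 357, then Srebf2 with 256, the delta-5 desaturase gene Fads1 with 219.03 and Hmgcs1, which makes HMG-CoA, with 211. The fatty acid synthase gene Fasn had 175, whereas Acaca, the carboxylase before it, had 30.0 and the elongase gene Elovl6 25.0. In the sterol steps, Fdft1, Ebp and Cyp51 had 107, 102 and 101, and Lss and Tm7sf2 were lowest among those tested with 10.6 and 11.6. Fdps, which makes farnesyl pyrophosphate, had 2.05 and failed the filter on low values. Of the 50-base words of its transcripts, 86.4% also occur in other genes, mostly Gm43738 (77.3%), and its level is uncertain. Values are also uncertain in part for Acaca (52.6% of words shared, with the pseudogene Gm5182), Acat2 (45.9%, with Acat3), Fdft1 (30.7%), Idi1 (30.5%), Hmgcs1 (13.6%) and Scap (13.1%), and how the authors' counter treated such reads was not given in the sources used here.

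**Figure D1:**
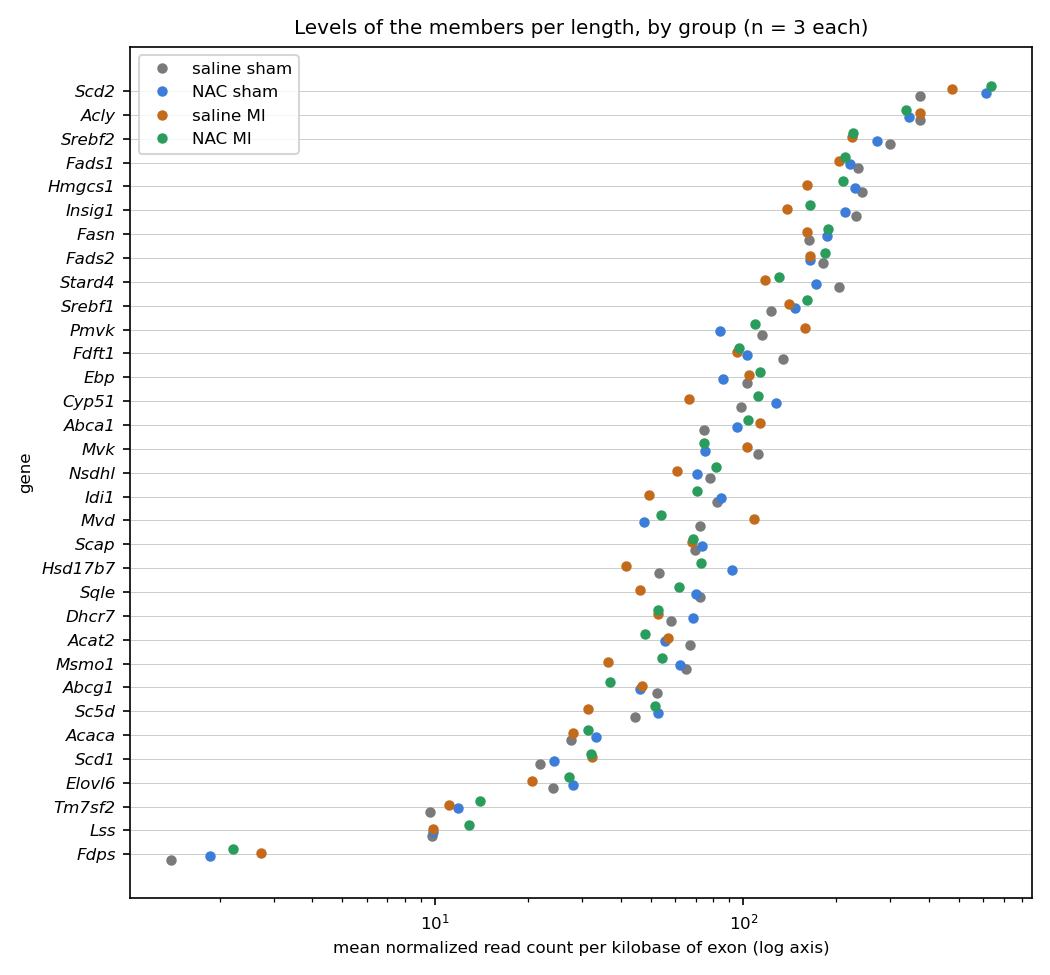
Mean normalized read count per kilobase of exon (log axis) of each of the 33 members in the 4 groups, each point the mean of 3 libraries, in order of the mean over all 12. Scd2 is highest at 524 over all libraries and Fdps lowest at 2.05, and for most genes the 4 groups lie close together on this scale.

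No member passed the test in any of 7 comparisons. With limma at an adjusted p under 0.05 over 14996 genes, 0 of 32 were called for MI against sham after saline, where 0.860% of all genes were, and 0 for MI against sham after NAC, where 0.127% were. The count was 0 as well for NAC against saline after sham, for NAC against saline after MI, for the interaction and for NAC averaged over surgeries, where 0% of all genes were called, and for MI averaged over treatments, where 2.74% were. At an unadjusted p under 0.05 the members numbered 6, 0, 3, 4, 0, 6 and 5 in the same order, and edgeR called 0 members in all 7. DESeq2 called 1 member for MI averaged over treatments (Stard4, adjusted p = 0.0432), where it called 8.12% of all genes, and 2 for NAC averaged over surgeries (Hsd17b7 and Scd2, adjusted p = 0.0448 and 0.0446), where it called 2.91%. The differences below are therefore given as values.

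Libraries differed within groups in ways that touch these results. Recovered depth was 14353842 to 25118341 reads. All 11 cardiomyocyte markers were present, with a summed level of 226408 to 625482, but other cells were present too. The cardiomyocyte sum was 336579 to 522124 in saline sham, 226408 to 583108 in NAC sham, 416008 to 576077 in saline MI and 475093 to 625482 in NAC MI. The lowest sum of the study was thus in NAC sham, the group with the widest spread (SD 205264). The 12 macrophage markers summed to 21440.4 in NAC sham 2, the other 5 sham libraries having 829 to 1767, and to 1086 in NAC MI 2, the other 5 MI libraries having 9365 to 13694. Saline sham 3 had 27.7% of reads from the mitochondrial genome against 7.65% and 13.6% in the other 2 of its group. The share was 15.4% to 24.8% in NAC sham, 24.7% to 30.2% in saline MI and 21.7% to 27.8% in NAC MI. Saline sham 1 and 2 were thus the lowest of the study, and saline sham 3 lay in the range of the MI libraries. Leaving out saline sham 3 widens the difference in this share between saline sham and saline MI. Of the adipocyte markers, Cidec and Lep were at 0 in all 12 libraries and Adipoq was at 0 except in saline sham 3 (4.76). Others of that list had reads. Its sum was 80.4 to 140 in saline sham, 92.0 to 282 in NAC sham, 120 to 203 in saline MI and 116 to 236 in NAC MI. Sample titles carry prefixes of unstated meaning (R207, R219, R230, R235 or none), and since no prefix holds both surgeries, prefix and MI cannot be told apart. In bulk samples, fewer cells of a type and less RNA per cell cannot be told apart either.

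**Figure D2:**
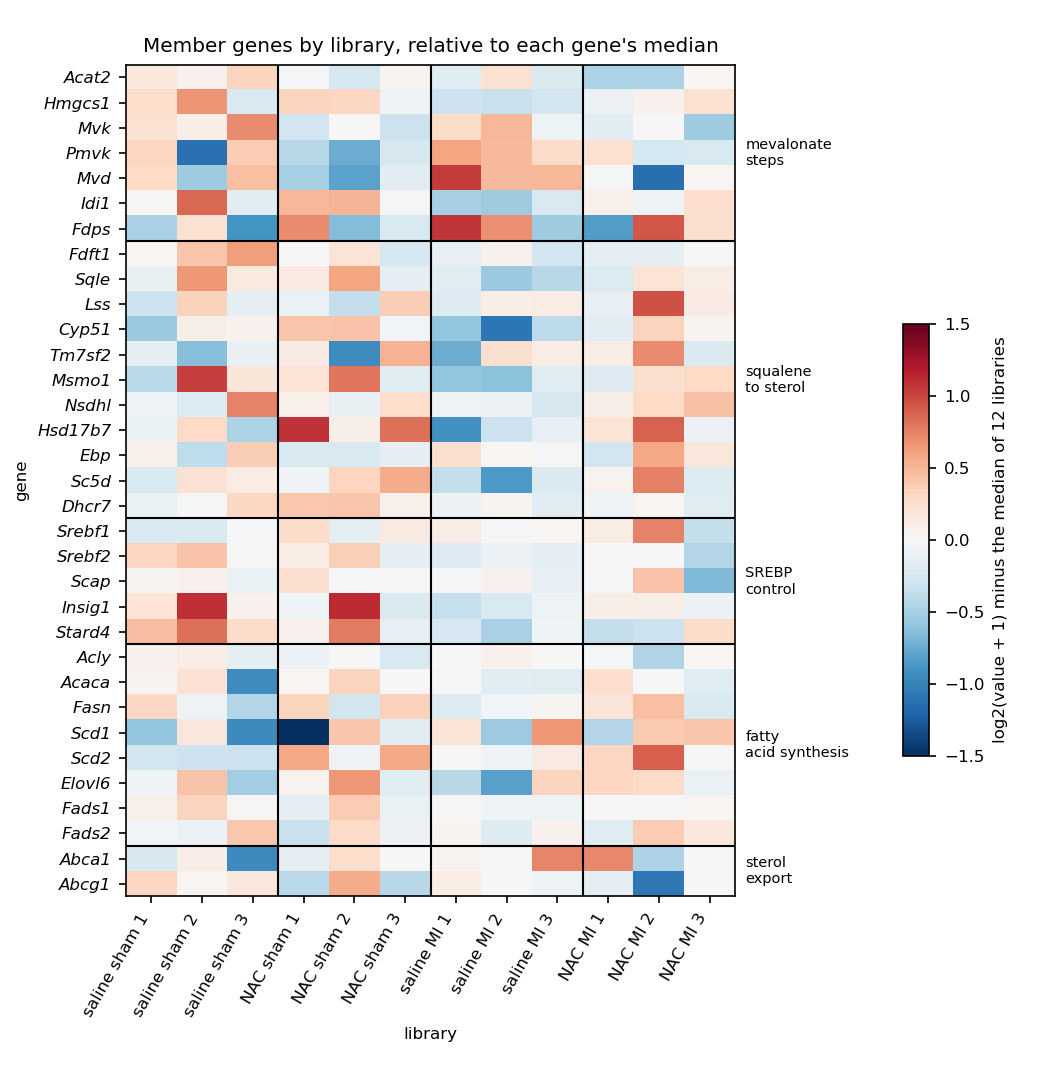
Colour gives log2(value + 1) minus the median of the 12 libraries for each of the 33 members (rows, by role) in each library (columns, by group), with the scale limited to between -1.5 and 1.5. Saline sham 2 and NAC sham 2 share high Insig1, Stard4, Msmo1 and Sqle and low Mvd and Pmvk, and the 3 saline MI libraries lie below the median for Hmgcs1, Sqle, Cyp51 and Msmo1.

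The genes of the mevalonate steps did not share an order of groups. Hmgcs1 (ENSMUSG00000093930, chromosome 13, 119690379 to 119708260) read 1105, 1454 and 783 in saline sham, 1157, 1140.3 and 881 in NAC sham, 740.3, 732 and 752 in saline MI, and 868, 961 and 1079 in NAC MI. Every saline MI library lay below every other library of the study for this gene, and the 3 differed by little among themselves. Idi1, the isomerase that makes dimethylallyl pyrophosphate (ENSMUSG00000058258, chromosome 13, 8885501 to 8892451), read 234.9, 423 and 206 in saline sham, 327, 330.2 and 229.8 in NAC sham, 164, 159.7 and 198 in saline MI, and 245, 222 and 276 in NAC MI. It too was lowest in saline MI, and saline sham 2 stood far above saline sham 1 and 3. Mvd, which decarboxylates mevalonate pyrophosphate (ENSMUSG00000006517, chromosome 8, 122433601 to 122443422), read 151, 84.3 and 168 in saline sham, 86.5, 70.1 and 109 in NAC sham, 256, 173 and 173 in saline MI, and 120.1, 55.6 and 126 in NAC MI. Its order was the reverse, with the saline MI libraries above all other 9, and NAC MI 2 lowest. Mvk, the mevalonate kinase (ENSMUSG00000041939, chromosome 5, 114444269 to 114460591), read 270.4, 247 and 377 in saline sham, 188, 230.3 and 184 in NAC sham, 279, 328 and 218 in saline MI, and 207.4, 231 and 159 in NAC MI. All 3 NAC sham libraries lay below all 3 saline sham libraries, and NAC MI 2 lay above saline MI 3, so the MI groups overlapped. Pmvk, the kinase of the next step, was lowest in saline sham 2 (90.3) and highest in saline MI 1 (296), and Acat2, the cytosolic thiolase, ran from 107 in NAC MI 1 to 188 in saline sham 3. Fdps had between 3.57 and 16.8.

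From squalene to sterol, the libraries of saline MI were again low for several enzymes. Fdft1, squalene synthase (ENSMUSG00000021273, chromosome 14, 63145150 to 63179578), read 445, 582 and 675 in saline sham, 434, 504 and 364 in NAC sham, 402, 454 and 356 in saline MI, and 396, 394 and 438 in NAC MI. Its highest value was in saline sham 3, and the MI groups overlapped with each other. Sqle, squalene epoxidase (ENSMUSG00000022351, chromosome 15, 59315077 to 59331192), read 309.5, 523 and 370.1 in saline sham, 365, 501 and 301 in NAC sham, 293, 226 and 249 in saline MI, and 288, 383 and 358 in NAC MI. Each saline MI library was below each saline sham library, and saline sham 2 and NAC sham 2 were the 2 highest. Cyp51, lanosterol demethylase (ENSMUSG00000001467, chromosome 5, 4081145 to 4104746), read 316, 495 and 487 in saline sham, 621, 623 and 452 in NAC sham, 311, 219.13 and 353 in saline MI, and 414, 584 and 477 in NAC MI. Saline MI was below NAC MI without overlap but shared its range with saline sham 1. Hsd17b7, which acts as a sterol 3-ketoreductase (ENSMUSG00000026675, chromosome 1, 169949535 to 169969241), read 264, 347 and 203 in saline sham, 600.0, 300.4 and 502 in NAC sham, 150.3, 226 and 259 in saline MI, and 325, 522 and 266 in NAC MI. NAC sham 1, NAC MI 2 and NAC sham 3 were the 3 highest, and NAC MI 3 exceeded saline MI 3 by little. Sc5d, sterol C5-desaturase (ENSMUSG00000032018, chromosome 9, 42251595 to 42264256), read 178, 244 and 226 in saline sham, 201, 262 and 309 in NAC sham, 163, 114 and 179 in saline MI, and 218, 355 and 181 in NAC MI. NAC MI 3 was barely above saline MI 3, and the sham groups overlapped. Dhcr7, which reduces 7-dehydrocholesterol (ENSMUSG00000058454, chromosome 7, 143823145 to 143848410), read 302, 316 and 402 in saline sham, 428, 432 and 341 in NAC sham, 303, 332 and 289 in saline MI, and 309.7, 331 and 284 in NAC MI. Its NAC sham libraries all exceeded the NAC MI libraries. Nsdhl, the sterol decarboxylase (ENSMUSG00000031349, chromosome X, 72918557 to 72958514), read 181, 166 and 321 in saline sham, 201, 177 and 229 in NAC sham, 182, 179.8 and 162 in saline MI, and 203, 234.9 and 260.1 in NAC MI. Saline sham 3 was highest and saline MI lay below NAC MI without overlap. Ebp, the sterol isomerase (ENSMUSG00000031168, chromosome X, 8185329 to 8193512), read 241, 175 and 295 in saline sham, 194, 195 and 206.7 in NAC sham, 269, 233 and 223 in saline MI, and 187, 342 and 257 in NAC MI. Its groups overlapped in all 4 comparisons of single groups. Msmo1, a sterol methyl oxidase (ENSMUSG00000031604, chromosome 8, 64718139 to 64733792), read 231, 628 and 346 in saline sham, 352, 533 and 268 in NAC sham, 204, 198 and 268 in saline MI, and 267, 360.0 and 374 in NAC MI. Saline sham 2 and NAC sham 2 were the 2 highest, and saline sham 1 lay within the range of saline MI. Of the rest, Lss, lanosterol synthase, ran from 82.3 to 206 and Tm7sf2, a sterol reductase, from 26.3 to 84.6, both highest in NAC MI 2.

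Among the controllers, Stard4, a carrier of cholesterol between membranes (ENSMUSG00000024378, chromosome 18, 33199355 to 33213862), read 1078, 1391 and 947 in saline sham, 818, 1343 and 719 in NAC sham, 659.6, 561 and 753 in saline MI, and 610.0, 629 and 949 in NAC MI. All saline MI libraries lay below all saline sham libraries, and NAC MI 3 reached the level of saline sham 3. Srebf2 (ENSMUSG00000022463, chromosome 15, 82147181 to 82205379) read 2230.4, 2414 and 1802 in saline sham, 1931, 2294 and 1634 in NAC sham, 1560.3, 1675 and 1618 in saline MI, and 1774, 1801 and 1318 in NAC MI. It was lower in each saline MI than in each saline sham library, while its NAC groups overlapped. Insig1, itself a target of SREBP, was at 1068 and 1081 in saline sham 2 and NAC sham 2 and at 391 to 573 in the other 10. Srebf1, which favours fatty acid genes, ran from 603 to 1292 and Scap from 327 to 699, both lowest in NAC MI 3 and highest in NAC MI 2. In fatty acid synthesis, Scd2 (ENSMUSG00000025203, chromosome 19, 44293674 to 44306864) read 2090.5, 2041 and 2025 in saline sham, 3803, 2453 and 3772 in NAC sham, 2557, 2436 and 2776 in saline MI, and 3180.4, 4731 and 2518 in NAC MI. Saline sham was tight and below every other library, and NAC sham 2 and NAC MI 3 were the lowest of the NAC libraries. Acly, Fasn, Fads1 and Fads2 had highest over lowest ratios of 1.48, 1.86, 1.43 and 1.68 over the 12 libraries, the ratio of Fads1 being the smallest of the 33. Scd1 had 4.55, from 48.0 in NAC sham 1 to 218 in saline MI 3. The exporters tracked single libraries: Abca1 was 1585 in saline MI 3 and 1578 in NAC MI 1 but 491 in saline sham 3, and Abcg1 was highest in NAC sham 2 (500.1) and lowest in NAC MI 2 (162). NAC sham 2 and NAC MI 2 are the libraries with the high and the low macrophage markers, and the part of those cells in the exporter values was not tested.

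**Figure D3:**
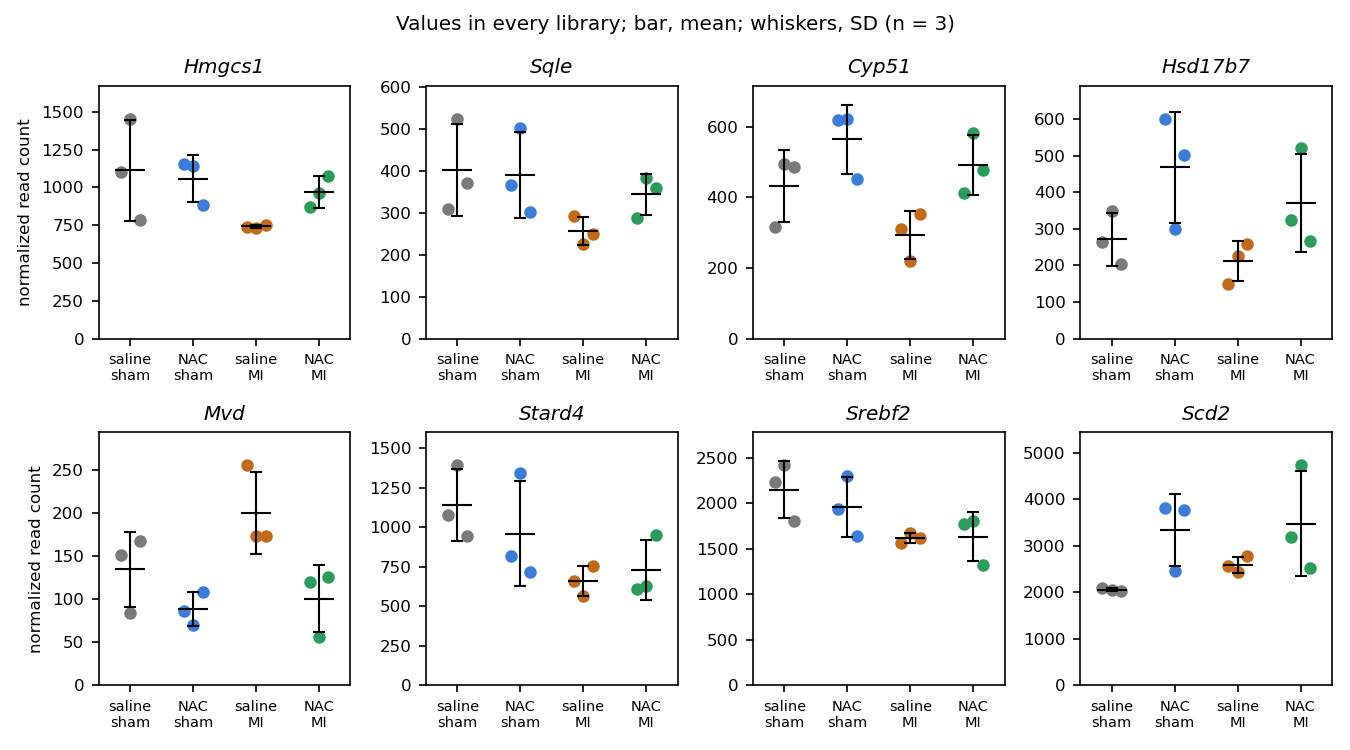
Normalized read counts (vertical axes, from 0) of 8 members in every library (points) of the 4 groups, with the mean (bar) and SD (whiskers, n = 3). Hmgcs1 and Srebf2 have tight saline MI values (732 to 752 for Hmgcs1) below saline sham, Mvd has its highest values in saline MI, and Scd2 is lowest in saline sham (2025 to 2090.5).

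The comparison of MI with sham after saline asked what infarction changed in cells of saline-treated pups. Of the 32 members, 20 were lower after MI and 12 higher, with a median log2 fold change of -0.14 against -0.01 over all genes. At an unadjusted p under 0.05 there were 6 members, all lower (18.8%, against 11.4% of all genes), and groups did not overlap for 9 (28.1%, against 18.6%), 7 of them lower. Stard4 went from 1139 ± 228 to 658 ± 96.3 (SD, n = 3; log2 fold change -0.78, SE 0.258, adjusted p = 0.229 by the limma test). Msmo1, with overlapping groups, had the lowest log2 value of the sterol enzymes, -0.73 (SE 0.341, adjusted p = 0.440), and -0.16 after NAC. Idi1, Sqle, Cyp51, Hmgcs1 and Fdft1 had log2 values of -0.66, -0.62, -0.55, -0.54 and -0.48, with adjusted p from 0.352 to 0.422. By role, the 17 measured genes of sterol synthesis had a median of -0.29 with 12 lower, the 5 controllers -0.40 with 4 lower, and the 8 of fatty acid synthesis 0.01 with 3 lower. Mvd (0.61) and Scd2 (0.33) were the separated members with higher values, and Abca1 was 0.63 (SE 0.324). Summed over the 17 genes, the sterol enzymes came to 4778 to 6107 in saline sham and 4213 to 4281 in saline MI. Beside this, macrophage markers summed to 829 to 1370.3 and 9365 to 13694, endothelial markers to 59126 to 67154 and 35926 to 44369, and genes of G2 phase and mitosis to 8015 to 14229 and 6473 to 9043, with 10 of 10 of the last lower. Neutrophil markers summed to 78.3 to 641 and 4045 to 4805, and fibroblast markers to 100507 to 146995 and 163523 to 249831. Their part in the sterol values was not tested. Without saline sham 3, NAC sham 2 and NAC MI 2, limma called Hmgcs1, Stard4 and Insig1 (log2 -0.77, -0.91 and -0.87, adjusted p = 0.0213, 0.0215 and 0.0363), 3 of 32 members where it called 12% of all genes, so these calls turn on which libraries are kept and their share is below the background.

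The same contrast after NAC was also near 0 at the median, and the sign of that median turned with 1 library. MI against sham after NAC had 20 of 32 members lower and a median log2 of -0.06, which ran from -0.14 without NAC sham 3 to 0.01 without NAC sham 2. In limma 0 members reached an unadjusted p under 0.05, against 10% of all genes. Groups were separated for 1 member (3.12%), against 19.0% of all genes. That member, Dhcr7, went from 400.3 ± 51.3 to 308 ± 23.6 (n = 3; log2 fold change -0.37, SE 0.186, adjusted p = 0.520). Stard4 had -0.37, Srebf2 -0.26 and Ebp 0.35. Neutrophil markers were higher after MI for 7 of 7 (median log2 2.25) and fibroblast markers for 8 of 8 (0.56), and their part was not tested. Whether the response to MI differed between treatments was tested by the interaction. It was above 0 for 20 of 32 members with a median of 0.14, and 0 had an unadjusted p under 0.05, against 2.03% of all genes. The 4 smallest p-values belonged to Fdft1 (0.40, SE 0.283), Hmgcs1 (0.42, SE 0.302), Nsdhl (0.49, SE 0.359) and Sqle (0.46, SE 0.349), each with an adjusted p that rounds to 1. With the title prefix as a block the median was -0.02. In that fit the NAC effect after sham rests on NAC sham 2 against saline sham 1 and 2. A difference in response was thus not detectable here. Averaged over treatments, 5 members had an unadjusted p under 0.05 for MI, all lower, or 15.6% against 20.2% of all genes: Stard4 (log2 fold change -0.58, SE 0.183, adjusted p = 0.109), Srebf2 (-0.33), Idi1 (-0.45), Sqle (-0.39) and Hmgcs1 (-0.33).

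**Figure D4:**
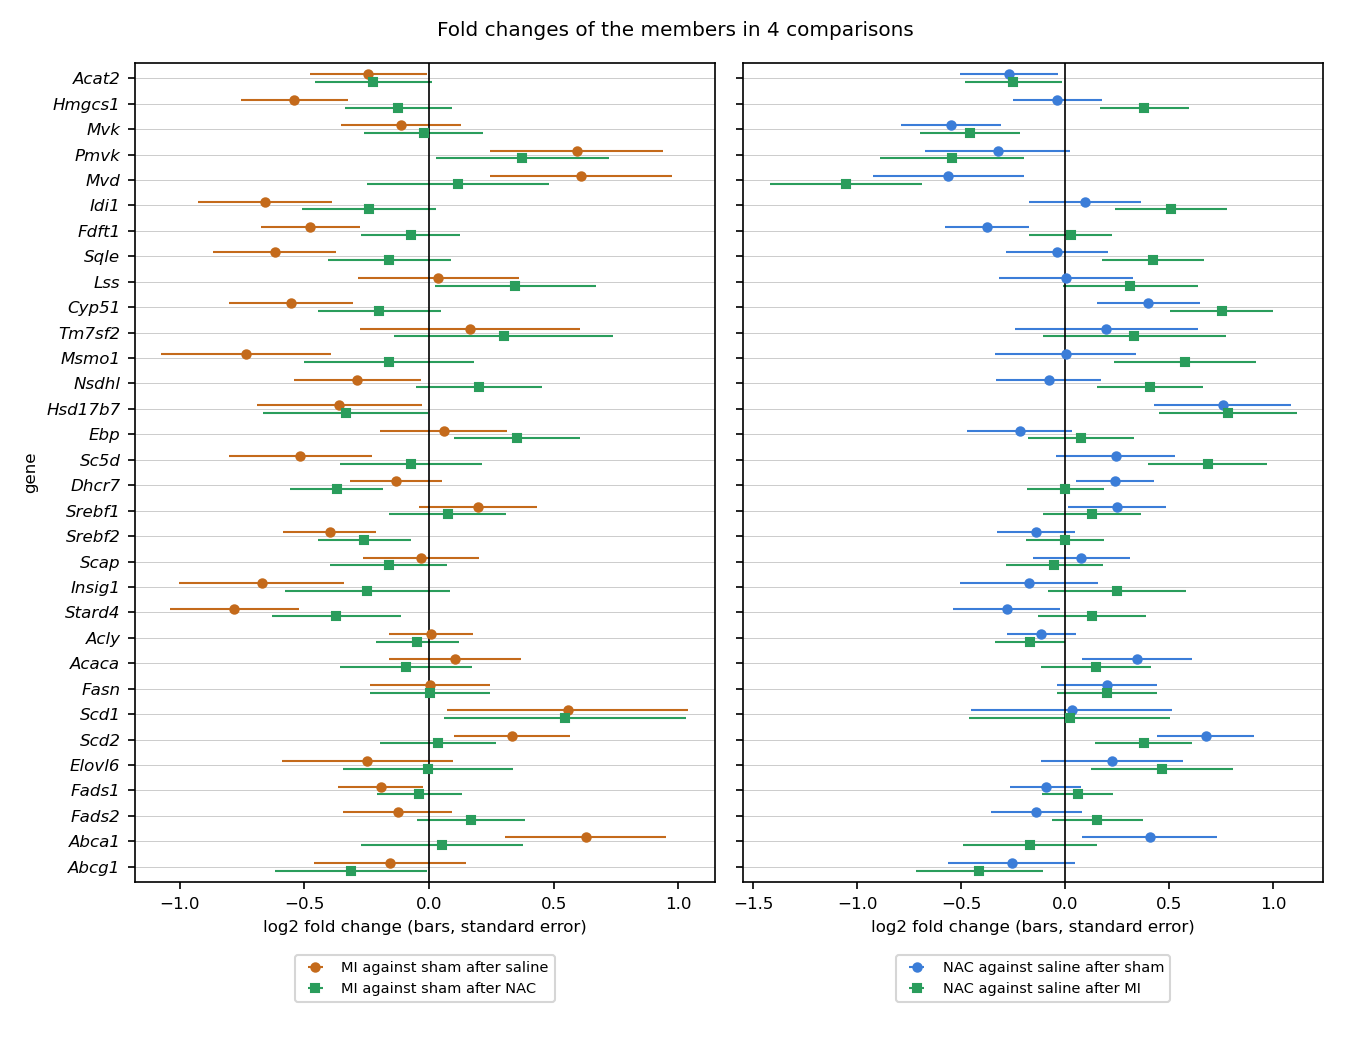
Log2 fold change with its standard error (bars) from limma for the 32 tested members, left for MI against sham after saline and after NAC, right for NAC against saline after sham and after MI. On the left most sterol genes lie below 0 after saline, down to -0.78 for Stard4, and on the right Mvd lies furthest below 0 after MI at -1.06 and Hsd17b7 above it at 0.78.

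The comparison of NAC with saline after sham asked what the antioxidant changed in uninjured hearts. Members were split 16 higher and 16 lower with a median log2 of -0.02. At an unadjusted p under 0.05 there were 3 (9.38%, against 5.89% of all genes), and 3 were separated (9.38%, against 9.86%). Scd2 went from 2052 ± 33.9 to 3343 ± 771 (n = 3; log2 fold change 0.68, SE 0.233, adjusted p = 0.770), with all NAC libraries above all saline libraries. Hsd17b7 had 0.76 (SE 0.330) with overlapping groups, Mvk -0.55 (SE 0.240) with separated groups, and Fdft1 -0.38 (SE 0.200). Without saline sham 3, NAC sham 2 and NAC MI 2, Scd2 was the 1 member called in limma (log2 0.87, adjusted p = 0.0183), where 2.79% of all genes were called. That leaves NAC sham 1 and 3, without a prefix, against saline sham 1 and 2, both R207. Prefix and treatment cannot be told apart in this call. NAC sham 2, left out there, had the lowest Scd2 of its group (2453, against 3803 and 3772). Within R207, the only prefix with both treatments after sham, NAC minus saline was 0.25 for Scd2, -0.01 for Hsd17b7 and -0.17 for Mvk. R207 holds 1 NAC library, NAC sham 2 with its high macrophage markers, and saline sham 1 and 2. NAC sham 1 and 3 carry no prefix. Red cell markers summed to 188851 to 412341 in NAC sham and 547047 to 1397140.0 in saline sham. Macrophage markers were higher with NAC for 12 of 12 (median log2 1.59), with sums of 1336 to 21440.4 against 829 to 1370.3. Neutrophil markers were higher for 7 of 7 (0.72) and endothelial markers lower for 7 of 7 (-0.35), each list with overlapping sums. Their part was not tested.

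After MI, most enzymes from squalene to sterol had higher values with NAC, and 0 passed in limma. NAC against saline after MI had 22 of 32 members higher with a median log2 of 0.14, and 10 of 11 from squalene to sterol were higher with a median of 0.41. At an unadjusted p under 0.05 there were 4 members (12.5%, against 9.22% of all genes), and 8 were separated (25%, against 20.3%), which is near the background. Cyp51 went from 294 ± 68.3 to 492 ± 85.8 (n = 3; log2 fold change 0.75, SE 0.248, adjusted p = 0.529), Hsd17b7 had 0.78 (SE 0.330) and Sc5d 0.69 (SE 0.286). Idi1 (0.51), Nsdhl (0.41) and Hmgcs1 (0.38) were higher in every NAC MI library than in every saline MI library. Mvd went the other way, from 201 ± 47.6 to 100.4 ± 38.9 (log2 fold change -1.06, SE 0.365, adjusted p = 0.529), and Pmvk was -0.54, also separated. MI after saline and NAC after MI share the saline MI libraries, so that low values of that group enter both. Within R230 and R235, NAC minus saline was 0.87 and 0.48 for Cyp51, 0.53 and 0.66 for Hsd17b7, 0.40 and 0.63 for Sc5d and -0.74 and -1.08 for Mvd. R230 holds 1 NAC and 2 saline libraries, and R235 2 NAC and 1 saline. These are the MI libraries just compared, and the 4 genes were picked by that comparison, so the signs are no separate support. The same 4 kept these signs in R207 after sham except Hsd17b7 (0.65, -0.01, 0.33 and -0.68), where NAC sham 2 is the only NAC library. Genes of G2 phase and mitosis summed to 11228 to 12148 in NAC MI and 6473 to 9043 in saline MI, with 10 of 10 higher, and red cell markers to 265547 to 520777 and 876829 to 1381890.0. Macrophage markers were lower with NAC for 12 of 12 (median log2 -1.33), with sums of 1086 to 12064.5 against 9365 to 13694 in saline MI. The lowest sum was that of NAC MI 2, and the other NAC MI libraries lay within the range of saline MI. Endothelial markers were lower for 6 of 7 (-0.46), with sums of 19638 to 45917.5 that overlapped 35926 to 44369 in saline MI. Their part was not tested. Without saline sham 3, NAC sham 2 and NAC MI 2, Mvd had -0.68, Hsd17b7 0.51 and Cyp51 0.62 after MI.

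Averaged over surgeries, NAC libraries had higher values of 21 of 32 members with a median log2 of 0.12, which was 0.03 without NAC MI 2 and 0.02 without saline sham 3, NAC sham 2 and NAC MI 2. Of the members, 6 had an unadjusted p under 0.05 (18.8%, against 15.5% of all genes). These were Hsd17b7 (log2 fold change 0.77, SE 0.234, adjusted p = 0.205), Cyp51 (0.58), Scd2 (0.53) and Sc5d (0.46) with higher values, and Mvd (-0.81, SE 0.258) and Mvk (-0.50, SE 0.170) with lower ones. Of the 11 genes from squalene to sterol 9 had values above 0, while Mvk, Pmvk and Mvd, consecutive steps of the mevalonate route, had -0.55, -0.33 and -0.56 after sham and -0.46, -0.54 and -1.06 after MI. The same 3 genes had, for MI against sham after saline, -0.11, 0.59 and 0.61. They are 3 of 7 mevalonate genes. With NAC after MI, Hmgcs1 and Idi1 of that route went the other way without overlap, and Acat2 had a lower mean with overlap. After sham the groups of Pmvk and Mvd overlapped, saline sham 2 being low for both (90.3 and 84.3).

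Other genes of these pathways, 36 in 4 lists, gave 1 gene that passed. Apoe, an apolipoprotein that macrophages make in quantity, read 1839, 1504 and 2857 in saline sham, 2363, 6824 and 3162 in NAC sham, 12430.5, 7245 and 11356 in saline MI, and 7294, 3140.2 and 5069 in NAC MI. Its groups did not overlap after saline. It was highest of its group in NAC sham 2 and lowest of its group in NAC MI 2, as the sum of macrophage markers was. The part of those cells in the Apoe values was not tested. It rose after MI with saline, with means of 2067 ± 705 without and 10344 ± 2737 with infarction (SD, n = 3; log2 fold change 2.34, SE 0.403, adjusted p = 0.0174). For MI averaged over treatments it had 1.37 (adjusted p = 0.0236). Its adjusted p for MI after saline ran from 4.1e-06 to 0.127 over 16 alternatives, 12 of which called it. The call was lost without saline sham 1 or 2 or saline MI 1 or 3 (adjusted p = 0.0903, 0.0733, 0.127 and 0.0991), and the averaged one without any of 7 libraries, namely saline sham 1 or 2, NAC sham 1 or 3, saline MI 1 or 3 and NAC MI 1 (adjusted p of 0.0502 to 0.0814). The other 35 did not pass in any of the 7 comparisons, and the gene with the smallest p of each list is given, with 1 exception. In the sterol list, Nceh1, a cholesterol ester hydrolase, read 267, 456 and 224 in saline sham, 1137, 782 and 913 in NAC sham, 462, 342 and 558 in saline MI, and 912, 1276 and 679.6 in NAC MI. Every NAC library exceeded every saline library (log2 fold change 1.34, SE 0.212, adjusted p = 0.126 averaged over surgeries, and 1.63 and 1.05 after sham and after MI), and 6 of 22 alternatives called the averaged value. The share of all genes separated in this way was not counted. For that average the alternatives called 0% to 13.5% of all genes. For MI the sterol list gave Ch25h, cholesterol 25-hydroxylase, after saline (1.83), Stard3 after NAC (-0.38) and in the interaction (-0.45), and Lbr averaged (-0.46). In the fatty acid list, Gpam, which starts glycerolipid synthesis, read 562, 762 and 582 in saline sham, 2109.9, 786 and 1791 in NAC sham, 517, 631 and 679 in saline MI, and 962, 1478 and 1013 in NAC MI. It too was separated by treatment (log2 fold change 1.04, SE 0.223, adjusted p = 0.172 averaged, 1.19 after sham), with 4 of 22 alternatives calling the former, and Acsl3 had 0.88 after MI. The limits given for Nceh1 hold for Gpam as well. Elovl5 had -0.43 for MI after saline and -0.34 averaged, and Me1 0.56 for MI after NAC and 0.53 in the interaction. Among other genes of SREBP control, Mbtps2, the site-2 protease, had -0.51 for MI after saline, -0.31 averaged, 0.79 for NAC after MI, 0.58 averaged and 0.40 in the interaction, and Insig2 0.34 for MI after NAC. All 6 of that list were higher with NAC after sham and after MI, with medians of 0.38 and 0.34. In the LXR list, Arl4c had -0.64 for NAC after MI, -0.47 averaged and -0.46 for MI after NAC, and Apoe 0.90 for NAC after sham and -1.94 in the interaction.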

How the data were processed

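The deposited table held a normalized signal per gene and library: reads per gene over a size factor of the library, computed by the authors, as the values show. Times that factor, 100% of the values lay within 0.01 of whole reads, and the factors equalled median-of-ratios factors recomputed from them. Tools and builds listed in the submitters' processing notes are mm10, DESeq2 1.44.0 and STAR 2.7.10a. Which program counted the reads, against which annotation and with what strandedness is not given in the sources used here. Symbols, positions and exon lengths came from GENCODE M21 on GRCm38, which matched 52079 of 52336 identifiers.

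Genes with a mean of at least 10 over the 12 libraries were kept (14996; 21590 of the others were at 0 everywhere). Values were tested as log2(value + 1) with limma 3.58.1 (R 4.3.3, trended variance) in 1 model of 4 group means with 8 residual degrees of freedom. Fold changes are on that scale, and understate those of low genes. Tests were two-sided, adjusted by Benjamini-Hochberg over all genes, at 0.05. An exact permutation test was not used, since 3 libraries against 3 cannot pass 0.05 by it. The limma, edgeR and DESeq2 fits were tested on simulated data. Alternatives were edgeR 4.0.16 and DESeq2 1.42.0 on recovered reads, TMM and upper quartile scaling, a pseudocount of 10, no filter, a mean of at least 50, library quality weights, the libraries of a comparison alone, the title prefix as a block, and leaving out 1 library or the 3 that stand apart. On recovered reads, edgeR called 91, 28, 0, 0, 0, 420 and 0 genes for MI after saline, MI after NAC, NAC after sham, NAC after MI, the interaction, MI averaged and NAC averaged, and DESeq2 464, 241, 53, 11, 1, 1218 and 437.

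Genes named are all 33 members and, of the 4 lists of other pathway genes, those that passed or, for a list and comparison with none, the gene with the smallest p. Values in every library are given for the 4 members with the smallest p in each comparison. The members, lists and tests were chosen with earlier results of these data known. Marker lists are textbook ones, and a summed level adds the normalized read counts of a list. Replicate numbers follow accession order and pair nothing. For the other pathway genes, 1 result is not reported here.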

Additional observations from a re-analysis of the deposited data

How the results depend on the processing

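Of 4229 single values under the alternatives, 357 had another sign than the reported one. These are values of members and, in the comparisons that called it, of Apoe. Part of the 4229 could not differ. With no filter, a mean of at least 50 or the libraries of a comparison alone, the log2 value is the reported one by construction. The count therefore does not measure how firm the directions are. Of the members' values, 28 were past the threshold. With library quality weights, 5 members were called for MI after saline (Hmgcs1, Idi1, Srebf2, Insig1, Stard4), 1 for NAC after sham (Scd2), 2 for NAC after MI (Mvd, Hsd17b7), 4 for MI averaged (Hmgcs1, Hsd17b7, Srebf2, Stard4) and 6 for NAC averaged (Mvk, Mvd, Cyp51, Hsd17b7, Scd2, Abcg1), against 0 in each, where all genes had 19.4%, 2.81%, 4.57%, 27.9% and 13.5% called. Without the 3 libraries that stand apart the counts were 3, 1, 0, 1 and 1 in the same order, where all genes had 12%, 2.79%, 0%, 14.6% and 2.19%, and the median log2 for NAC after sham was -0.135. In that setting the NAC sham and saline sham libraries share no title prefix. DESeq2 called 1 for MI averaged and 2 for NAC averaged, and 1218 and 437 of all genes. With the title prefix as a block the interaction's median was -0.0199. Leaving out 1 library gave 0 to 1 calls for MI averaged (Hmgcs1 without saline sham 3, where 10.4% of all genes were called) and medians of -0.133 (without NAC sham 2) to 0.157 (without saline sham 2) for NAC after sham, 0.0608 to 0.243 for NAC after MI and 0.0897 to 0.238 for the interaction, both highest without NAC MI 3, and -0.136 to 0.00811 for MI after NAC, -0.201 to -0.141 for MI after saline, -0.161 to -0.0748 for MI averaged and 0.0327 to 0.176 for NAC averaged. The causes were not tested. Over all genes, counts ran from 15 to 2915 for MI after saline (129 reported), 1 to 806 for MI after NAC (19), 0 to 421 for NAC after sham (0), 0 to 685 for NAC after MI (0), 0 to 17 for the interaction (0), 133 to 4187 for MI averaged (411) and 0 to 2021 for NAC averaged (0), the highest values under library quality weights except for the interaction, where it was the prefix block. With 3 libraries a group, small differences between groups stay within the spread. No paired analysis was possible because the labels give no replicate numbers, so the title prefix, which holds both treatments in R207, R230 and R235, was the block fitted instead, for comparisons of NAC alone and the interaction: it called 0 members in each. Its NAC effect after sham, which enters the interaction and the average too, rests on NAC sham 2 against saline sham 1 and 2. NAC sham 1 and 3 and saline sham 3 share no prefix with the other treatment. The count of 0 is therefore no check of the NAC comparison over all sham libraries.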
